A study of Mus musculus with 15 samples.

Results

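Interferon-stimulated genes are the genes that cells switch on when interferons bind their receptors. Here 37 genes were examined, chosen by name, which also include pathway components such as the receptors and Irf3. The name is used below for all 37, whether or not interferon induces each one. They were grouped as receptors, transcription factors, RNA sensors, Isg15 conjugation, IFIT proteins, OAS family, membrane restriction factors, large GTPases and other effectors. Of the 37 genes, 35 had a probe set that names only that gene, out of 18193 genes measured, and where a gene had several, the one with the highest mean signal was read. Isg15 was left out because its probe set names several genes, and Ifi44 had no probe set of its own name and was not analysed here. The choice of genes used no measured value, but it was made with earlier results of these arrays known.

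RNA was measured on 15 Affymetrix arrays of mouse cells, 3 for each of 5 lines grown in the same serum-containing medium. NMuMG is a wild-type, non-tumorigenic mammary gland epithelial line that was never passed through mice. E1KD is NMuMG with hnRNP E1 silenced, an RNA-binding protein that Pcbp1 encodes, also without passage in mice. M1P was recovered from a mammary tumour of E1KD cells at passage 1, L1P from lung metastasis at passage 1 and L2P from lung metastasis at passage 2, so these 3 lines carry the silencing too. The mice were NOD/SCID, a strain without T and B lymphocytes, and the cells were injected into the mammary fat pad. Each condition is 1 line, and the labels do not say whether its 3 arrays came from separate cultures. Each p-value therefore rests on the spread between arrays within lines, which may be technical. This spread was pooled over all 5 lines, so it is not that of the 2 lines compared.

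Values are log2 signals, with array medians of 4.171 to 4.258, and the number of arrays limits their precision. Pcbp1 read 12.68 ± 0.10 (SD, n = 3) in NMuMG and 7.95 to 10.09 on the 12 arrays of silenced lines. Of 8 epithelial markers, Krt8 (13.63 to 14.22), Krt18 (13.42 to 14.11), Krt19 (12.5 to 13.63) and Cdh1 (10.15 to 11.58) were high on every array. Epcam (4.955 to 5.803) and Cldn3 (4.636 to 5.709) were above the array median by less, and Cldn4 (3.361 to 3.979) and Cldn7 (2.997 to 3.742) were below it on every array. Correlations between arrays of a line ran from 0.9305 to 0.978 in M1P and from 0.9792 to 0.9962 in the other 4 lines, so M1P is given array by array. A signal of bulk RNA cannot tell fewer cells that express a gene from less RNA per cell.

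Type I interferons bind the receptor pair Ifnar1 and Ifnar2, whose kinases Jak1 and Tyk2 phosphorylate Stat2. Stat2 acts with Irf9 on a DNA element called the interferon-stimulated response element (ISRE), whereas type II interferon binds Ifngr1 and acts on the gamma-activated site (GAS). The products include sensors of viral RNA, nucleases, membrane proteins that block virus entry or release, and GTPases, and epithelial cells keep many of them at a basal level. Tumour cells can also express them without infection.

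Promoter sequences show how these elements are spread over the genes. RefSeq promoters (GRCm38.p6, 250 bases before to 50 after the start) were found for 31 of the 37 genes. The ISRE core, searched on both strands, was present in 15 of 31 promoters (48.4%), 11 of them with a match before the start, and in 3.99% of the promoters of 27025 genes. The GAS core, which reads the same on both strands, was present in 10 of 31 (32.3%) and in 9.55% of all promoters. In Bst2 a GAS core overlaps the first ISRE core, and in Bst2 and Oas1a the ISRE cores overlap each other. A match is a run of letters and was not tested as a binding site.

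The 150 bases before the RefSeq start follow for 5 genes, each 5′ to 3′ on its own gene's strand, with capitals on the ISRE cores (for Irf1, on the GAS core). Bst2 (chr8:71537473-71537622, minus strand), Oas1a (chr5:120907526-120907675, minus strand) and Irf1 (chr11:53769864-53770013, plus strand) are shown because they rose in M1P against E1KD. Ifit1 (chr19:34640739-34640888, plus strand) and Rsad2 (chr12:26456453-26456602, minus strand) are shown because they carry the core and did not pass in any comparison. The annotated span of Oas1a reaches into the last bases of its stretch.
Bst2: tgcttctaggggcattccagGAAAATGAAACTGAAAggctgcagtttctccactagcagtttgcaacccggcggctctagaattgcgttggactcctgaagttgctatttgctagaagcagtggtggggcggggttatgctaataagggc
Oas1a: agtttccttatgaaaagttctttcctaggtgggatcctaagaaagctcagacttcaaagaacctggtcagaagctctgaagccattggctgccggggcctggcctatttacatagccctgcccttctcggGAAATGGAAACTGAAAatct
Irf1: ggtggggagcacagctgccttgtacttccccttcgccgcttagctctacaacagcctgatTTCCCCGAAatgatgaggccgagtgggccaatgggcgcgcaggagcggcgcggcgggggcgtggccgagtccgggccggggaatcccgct
Ifit1: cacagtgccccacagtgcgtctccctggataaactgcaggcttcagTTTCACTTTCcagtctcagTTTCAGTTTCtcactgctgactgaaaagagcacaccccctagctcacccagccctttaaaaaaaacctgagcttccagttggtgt
Rsad2: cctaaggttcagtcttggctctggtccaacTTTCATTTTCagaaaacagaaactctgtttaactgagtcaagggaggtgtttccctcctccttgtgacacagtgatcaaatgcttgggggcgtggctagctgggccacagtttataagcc

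Genes that passed a test were found both with and without the ISRE core. Of 14 measured genes with an ISRE core, 6 passed in at least 1 of 9 comparisons (Stat2, Ifih1, Oas1a, Bst2, Ifitm2 and Ifitm3) and 8 in none. Of 15 measured genes with a promoter but no core, 8 passed and 7 did not, with Oasl1, Isg20, Irf3 and Irf9 among those that passed. For the GAS core, 7 of 10 measured genes with it passed and 3 did not, while of 19 without it 7 passed and 12 did not. These counts are a description, with no test of a difference. The share of all genes that passed in at least 1 of the 9 comparisons was not counted.

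The resting levels of the genes differed widely. On all 15 arrays, 17 of the 35 genes were above their array's median signal, and 9 were below it (Dhx58, Ifit1, Oasl2, Ifitm1, Ifitm3, Gbp2, Gbp3, Parp14 and Xaf1). Signals of different probe sets are not levels of RNA that can be ranked, and a change in a dim one is compressed. A moderated F test over the 5 lines (limma, adjusted over all genes) found that 12 of 35 genes differed between lines, a share close to the 31.8% of all genes. Without M1P array 3 it was 19 of 35, beside 49.0% of all genes. The 12 were the transcription factors Irf1, Irf3, Irf7 and Irf9, the sensor Ifih1, Oasl1, the membrane proteins Bst2, Ifitm2 and Ifitm3, and Isg20, Parp9 and Parp14. None of the 3 receptors, 3 IFIT genes or 4 GTPase genes passed, with adjusted p of 0.083 for Ifnar2, 0.0601 for Ifit3, 0.0871 for Ifit2 and 0.0959 for Mx1.

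**Figure D1:**
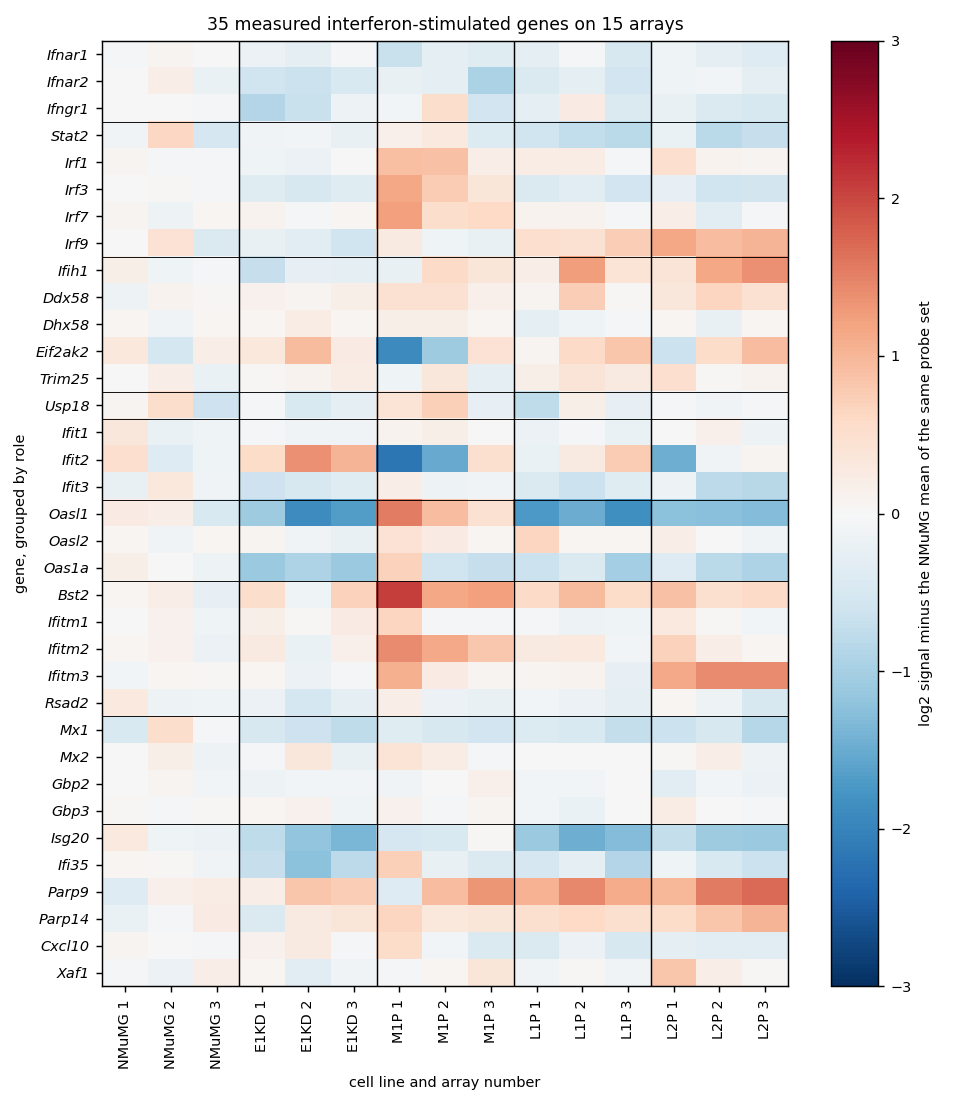
Each cell is the log2 signal of 1 of 35 interferon-stimulated genes on 1 of 15 arrays minus the NMuMG mean of the same probe set, red for higher and blue for lower, with lines between roles and between cell lines. Oasl1 and Isg20 are blue in E1KD, L1P and L2P, the M1P columns hold most of the strong red in Irf3, Oasl1, Bst2 and Ifitm2, and Ifit2 and Eif2ak2 are dark blue on M1P arrays 1 and 2.

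Comparing E1KD with NMuMG asks what silencing hnRNP E1 did in cells that had not been in mice. No interferon-stimulated gene rose and 3 of 35 fell, beside 3.0% of all genes that rose and 6.49% that fell, and the median difference was -0.10 on the log2 scale against -0.07 over all genes. The genes that fell were Oasl1 and Oas1a of the OAS family and Isg20 among the other effectors. With no rise passing, 0 of 35 genes were also higher at an unadjusted p under 0.05 in limma, and 9 were lower. Over all 18193 genes, 1329 were higher and 2550 lower at that level.

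Oasl1, an OAS-like protein without synthetase activity that in mouse holds back translation of Irf7, read 7.281, 7.242 and 6.585 in NMuMG and 5.967, 5.149 and 5.363 in E1KD. The groups did not overlap, and the difference was -1.54 ± 0.27 (SE, n = 3 arrays a line, limma adjusted p = 0.0025). Isg20, an RNA exonuclease, read 10.45, 10.02 and 9.98 in NMuMG against 9.392, 8.96 and 8.782 in E1KD, again without overlap. It fell by 1.11 ± 0.20 on the log2 scale (limma adjusted p = 0.00328). Oas1a, an oligoadenylate synthetase that activates RNase L, read 7.314, 7.131 and 6.988 in NMuMG and 6.036, 6.222 and 6.024 in E1KD. Its fall of 1.05 ± 0.30 on the log2 scale was close to the threshold (limma adjusted p = 0.0415) and was lost without any 1 of the 6 NMuMG and E1KD arrays (0.0776 to 0.14) and without L1P array 1 or 2 or L2P array 2 or 3 (0.0503 to 0.0597), and under quantile normalization (0.0523). Leaving out M1P array 1 or 3 gave 5 falls in place of 3, with 16.9% and 12.5% of all genes called in place of 9.49%.

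The other genes of the pathway, 50 measured of 53 on a list of ligands, kinases, adaptors and further induced genes, moved both ways from NMuMG to E1KD. There 3 rose and 3 fell (6.0% each), beside 3.0% of all genes that rose and 6.49% that fell. The rises were Parp12 (a mono-ADP-ribosyltransferase, 2.88 ± 0.30, limma adjusted p = 3.77e-05), Ly6e (a surface protein of the Ly6 family, 2.81 ± 0.37, 0.000267) and Samhd1 (a dNTP hydrolase, 0.80 ± 0.15, 0.00367). Ly6e read 4.094, 4.223 and 3.642 in NMuMG and 7.025, 6.364 and 6.99 in E1KD, and Parp12 moved from 3.446, 3.324 and 2.893 to 6.055, 5.858 and 6.376, both without overlap. The falls were Ikbke, a kinase of Irf3 (-1.56 ± 0.23, limma adjusted p = 0.000746), Socs3, an inhibitor of Jak signalling (-1.09 ± 0.26, 0.0159), and Tyk2 (-0.93 ± 0.19, 0.00672). The Socs3 call was lost without NMuMG array 2 (0.0607) or 3 (0.0533) or E1KD array 2 (0.0846) or 3 (0.0501). Samhd1 read from its most variable probe set had an adjusted p of 0.989.

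**Figure D2:**
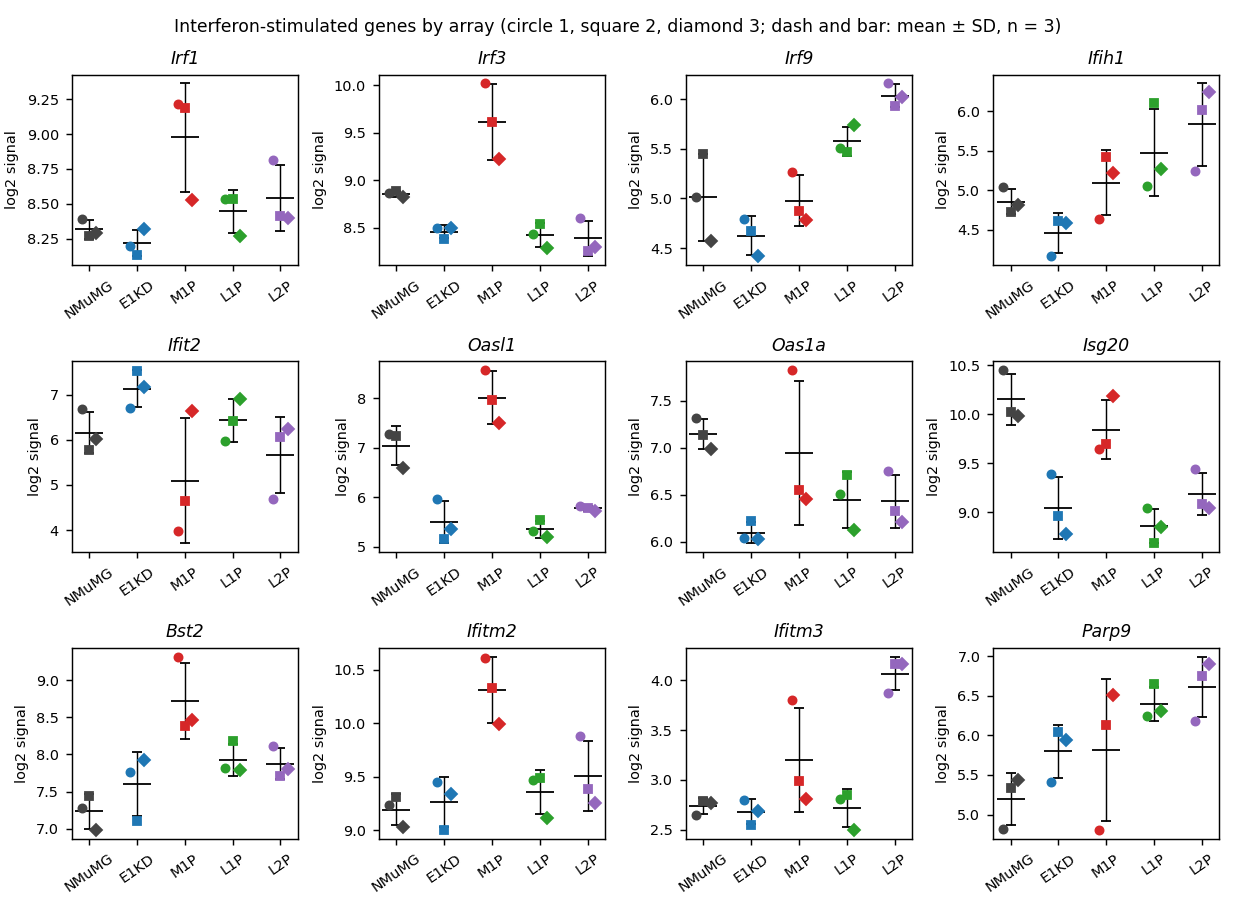
Panels give the log2 signal of 12 interferon-stimulated genes on each array of the 5 lines, with symbols for arrays 1 to 3, a dash for the mean and a bar for the SD (n = 3), and each panel has its own axis. Oasl1 and Irf3 are highest on all 3 M1P arrays, Ifitm3 and Irf9 are highest in L2P, and Ifit2 spreads from 3.989 to 6.647 within M1P.

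The M1P arrays show what a line recovered from a mammary tumour looks like beside the E1KD line it came from. Against E1KD, 9 of 35 interferon-stimulated genes rose and 1 fell, beside 17.7% of all genes that rose and 9.86% that fell. The 9 are 25.7% of the 35. The median of the 35 was 0.26 and that of all genes 0.20, so the typical gene also read higher in M1P. Quantile normalization moved the median of all genes from 0.20 to 0.10 and that of the 35 from 0.26 to 0.18, and all 9 rises and the fall were called under it too. The 9 are Oasl1, Irf3, Bst2, Ifitm2, Ifi35, Oas1a, Isg20, Irf1 and Irf7, and the gene that fell is Ifit2.

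Among the transcription factors, 3 of 5 rose. Irf3, which is activated by viral nucleic acid sensing, read 10.02, 9.609 and 9.217 in M1P and 8.5, 8.38 and 8.494 in E1KD. All 3 M1P arrays were above all E1KD arrays, by 1.16 ± 0.17 (SE, limma adjusted p = 0.00135). The 4 probe sets of Irf3 gave differences of 1.16, 1.16, 0.39 and 0.43. Irf1, an early target of type II interferon, read 9.214, 9.187 and 8.526 in M1P against 8.134 to 8.323 in E1KD (0.76 ± 0.18, limma adjusted p = 0.013). Irf7, which amplifies type I interferon, read 4.77, 4.069 and 4.135 against 3.479 to 3.63 (0.75 ± 0.18, limma adjusted p = 0.013). Neither overlapped, and both calls were lost without E1KD array 2 (0.0597 for Irf1 and 0.0599 for Irf7). Irf9 (0.35) and Stat2 (0.16) did not pass.

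Oasl1, Oas1a and Isg20, the 3 genes that fell in E1KD against NMuMG, rose in M1P against E1KD, and both comparisons share the E1KD arrays. Oasl1 read 8.564, 7.96 and 7.503 in M1P and 5.149 to 5.967 in E1KD, a rise of 2.52 ± 0.27 (limma adjusted p = 0.000164). This is a 5.72-fold difference, the largest of the 35 genes in this comparison, and the M1P arrays were also above all NMuMG arrays. Isg20 rose by 0.80 ± 0.20 (limma adjusted p = 0.0174), with 9.64, 9.70 and 10.19 in M1P, but the call was lost without E1KD array 2 (0.0716) or 3 (0.0632). Oas1a read 7.824, 6.554 and 6.451 in M1P, so array 1 stood above the other two, and its rise of 0.85 ± 0.30 passed narrowly (limma adjusted p = 0.0492). It was lost without any 1 of 12 arrays: those of NMuMG, E1KD and L1P, M1P array 1, and L2P array 2 or 3, with 0.172 the highest value. Oasl2, the remaining family member, was dim and did not pass (0.33).

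Of the membrane restriction factors, 2 of 5 rose. Bst2, or tetherin, which holds budding virus at the cell surface, read 9.312, 8.389 and 8.466 in M1P against 7.77, 7.111 and 7.928 in E1KD. The rise was 1.12 ± 0.26 (limma adjusted p = 0.0124), without overlap, and was lost without E1KD array 2 (0.063). Ifitm2, which blocks virus entry from endosomes, read 10.61, 10.33 and 9.99 in M1P and 9.452, 9.0 and 9.334 in E1KD, a rise of 1.05 ± 0.20 (limma adjusted p = 0.00536). Ifitm3 read 3.797, 2.994 and 2.81 in M1P, above all E1KD arrays (2.552 to 2.802), and did not pass (0.52). Ifi35, a partner of Nmi, rose by 0.92 ± 0.27 (limma adjusted p = 0.028), from 8.449 to 9.004 in E1KD to 10.4, 9.457 and 9.251 in M1P. Its call was lost without E1KD array 2 (0.116) or 3 (0.0561) or M1P array 1 (0.0955), and its 3 probe sets gave 0.92, 0.84 and 0.70.

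Ifit2, whose protein binds RNA and limits translation, went the other way and split the M1P arrays. It read 3.989 and 4.643 on M1P arrays 1 and 2, and 6.647 on array 3, just under the lowest E1KD array (6.704). The fall of 2.04 ± 0.58 on the log2 scale (limma adjusted p = 0.0259) was lost without M1P array 1 (0.103) or 2 (0.0595) and without E1KD array 2 (0.0971) or 3 (0.065). Eif2ak2, the kinase PKR that stops translation on double-stranded RNA, had the same array order in M1P, 4.682, 5.542 and 7.033, against 6.848 to 7.561 in E1KD. Its difference of -1.35 did not pass, and its 3 probe sets gave -1.35, -0.14 and -0.83. Parp9, by contrast, was low on M1P array 1 alone, with 4.805, 6.134 and 6.515.

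**Figure D3:**
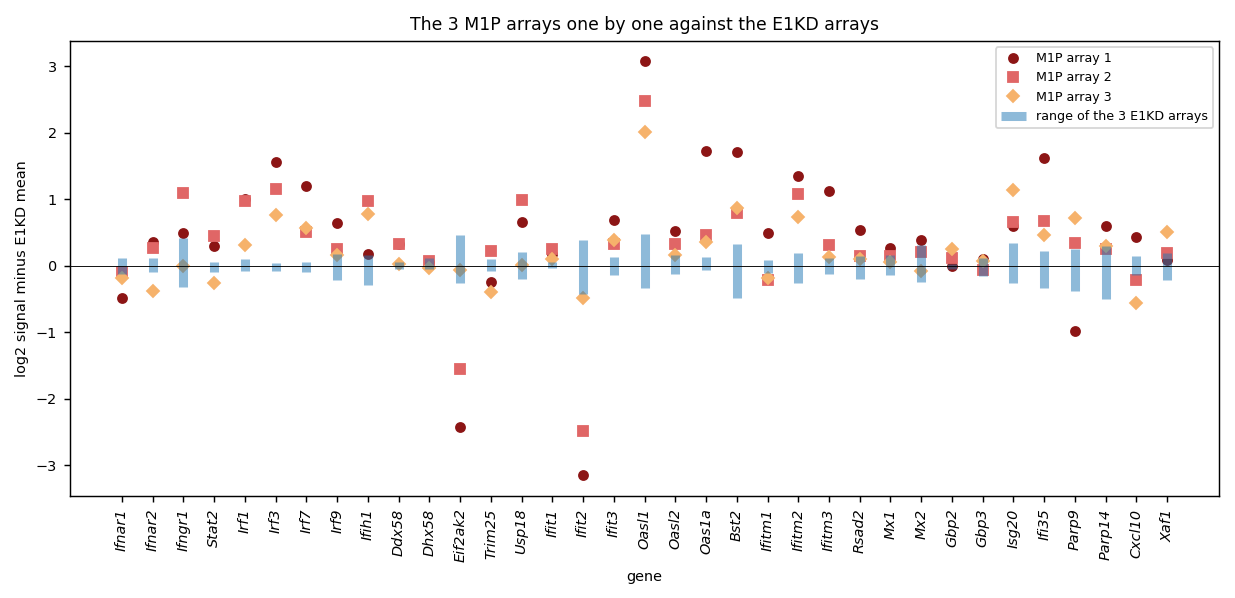
Each point is the log2 signal of a gene on 1 M1P array minus the E1KD mean, with circles, squares and diamonds for arrays 1 to 3, and the blue bar is the range of the 3 E1KD arrays around their mean. Array 1 lies above the E1KD range for 26 of 35 genes and array 3 for 16, and arrays 1 and 2 lie far below it for Eif2ak2 and Ifit2.

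One by one, the M1P arrays differed in how far they stood from E1KD. Array 1 was above all E1KD arrays for 26 of 35 interferon-stimulated genes and below all for 5, array 2 for 23 and 4, and array 3 for 16 and 7. Over all genes, 63.8%, 52.6% and 41.4% were above all E1KD arrays on M1P arrays 1, 2 and 3, and 25.3%, 22.3% and 25.7% were below. The median difference of the 35 was 0.49, 0.31 and 0.13, against 0.37, 0.16 and 0.07 over all genes. Ifnar2, a receptor chain, was above E1KD on arrays 1 and 2 (8.23 and 8.158) and below on array 3 (7.507), and Stat2 likewise (5.0, 5.154 and 4.454). Over the 3 M1P arrays, the other probe sets of Ifnar2 averaged -0.85 and -0.10 against E1KD, and that of Stat2 -0.11.

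The count of calls in M1P rested on single lines and arrays. Without E1KD array 2 it was 3 in place of 10, and without E1KD array 3 it was 6, while the share of all genes called went from 27.6% to 6.08% and 13.2%. With M1P arrays 1 and 2 left out it was 3 rises, Oasl1, Irf3 and Isg20, beside 4.45% of all genes. With the 2 lines alone in the fit it was 0 in limma, with 11 genes at an unadjusted p under 0.05 and 0.368% of all genes called.

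Measures of RNA integrity and of other cell types were set beside these genes. The difference between 3′ and 5′ probe sets of Tfrc, which reflects RNA integrity, was 1.43, 1.72 and 2.5 on the M1P arrays and 1.91 to 2.6 in the other lines, so M1P arrays 1 and 2 lay below the rest. For Actb it was 0.64 to 0.77 in M1P against 0.68 to 0.98, and for Gapdh 0.25 to 0.45 against 0.19 to 0.41. All 10 macrophage and leukocyte markers averaged higher in M1P than in E1KD and 1, Laptm5, passed (0.52 ± 0.16, limma adjusted p = 0.0331), with list means of 4.742 to 5.195 in M1P and 4.568 to 4.652 in E1KD. The defining leukocyte marker Ptprc stayed between 2.238 and 2.723 on all 15 arrays. Of the fibroblast markers 6 of 7 were higher and 1, Col1a2, passed (1.09 ± 0.37, limma adjusted p = 0.0464), with list means of 3.54 to 4.336 against 3.324 to 3.45. Of 6 alveolar and airway markers all were higher and 2, Ager (0.46 ± 0.15, limma adjusted p = 0.0395) and Nkx2-1 (0.44 ± 0.15, 0.0436), passed, with list means of 4.317 to 4.754 against 4.043 to 4.228. Of 6 endothelial markers all were higher and 1, Kdr, passed, with list means of 3.47 to 3.591 against 3.202 to 3.548. Of 8 epithelial markers 7 were higher and 1, Krt19, passed, with list means of 8.526 to 8.955 against 8.472 to 8.563. Over all 18193 genes, 12747 were higher in M1P than in E1KD and 17.7% rose. The part of the markers in the interferon-stimulated genes was not tested.

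Among the 50 other pathway genes, 11 rose (22.0%) and 5 fell (10.0%) in M1P against E1KD, close to the 17.7% and 9.86% of all genes. The largest rises were Ly6e (3.66 ± 0.37, limma adjusted p = 8.72e-05), Ifi47, an immunity-related GTPase (2.02 ± 0.32, 0.00226), and Ifi27, an interferon-inducible mitochondrial protein (1.67 ± 0.23, 0.0009). Ly6e read 10.99, 10.66 and 9.728 in M1P, above every array of the other lines. The largest falls were the kinase Jak2 (-1.83 ± 0.49, limma adjusted p = 0.0204), the phosphatase Ptpn2, which turns off Jak-Stat signals (-1.23 ± 0.35, 0.0269), and the GTPase Irgm1 (-0.96 ± 0.25, 0.0186). All 3 falls were lost without E1KD array 2 (0.0861, 0.0972 and 0.0642), E1KD array 3 (0.0556, 0.0626 and 0.0681) or M1P array 1 (0.0529, 0.104 and 0.0685), and that of Ptpn2 also without M1P array 2 (0.0551). With the 2 lines alone in the fit Ifi47 (0.0825), Ifi27 (0.0869) and the 3 falls (0.137 to 0.156) did not pass. Jak2 read 4.919, 6.703 and 7.207 on M1P arrays 1 to 3. Ifnb1, which encodes interferon beta, lay between 2.998 and 3.934 on all 15 arrays and passed in no comparison.

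The lung lines carried fewer changes from E1KD. In L1P 1 of 35 interferon-stimulated genes rose and none fell, beside 1.19% and 1.29% of all genes, with a median of 0.06 against -0.03. In L2P 3 rose and none fell, beside 2.14% and 1.64% of all genes, with a median of 0.14 against -0.00. At an unadjusted p under 0.05 in limma, 3 of 35 genes were higher and 3 lower in L1P, beside 847 and 976 of all 18193 genes. In L2P 7 were higher and 2 lower, beside 1172 and 953 of all genes. M1P, L1P and L2P were all set against the same 3 E1KD arrays, so these comparisons are not independent of each other.

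Irf9, the partner of Stat2 that binds the response element, read 4.794, 4.669 and 4.416 in E1KD, 5.513, 5.47 and 5.742 in L1P, and 6.161, 5.928 and 6.018 in L2P. The 3 groups did not overlap. The rise was 0.95 ± 0.20 in L1P (limma adjusted p = 0.0242) and 1.41 ± 0.20 in L2P (limma adjusted p = 0.0011). The L1P call was lost under quantile normalization (0.0538), without E1KD array 2 (0.0763) or 3 (0.127), and without any 1 of the L1P arrays (0.0658 to 0.118). The L2P call held in all 21 alternatives run. With E1KD array 2 or 3 or an L1P array left out, 0 members passed in L1P, with 2 to 5 at an unadjusted p under 0.05 in limma, and without M1P array 1 there were 2.

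Ifih1, a sensor of long double-stranded RNA, read 4.161, 4.614 and 4.584 in E1KD and 5.243, 6.013 and 6.236 in L2P, a rise of 1.38 ± 0.30 (limma adjusted p = 0.0209). It was lost without any 1 of the E1KD arrays (0.0552 to 0.10) and without L2P array 2 (0.0982) or 3 (0.113). Ifitm3, which keeps viruses from fusing with endosomal membranes, read 2.802, 2.552 and 2.69 in E1KD and 3.875, 4.166 and 4.16 in L2P. Its rise of 1.39 ± 0.21 (limma adjusted p = 0.00159) held in the 21 alternatives in which it was tested, though its signals were below the array median on every array. Its L1P arrays (2.812, 2.849 and 2.497) overlapped those of E1KD.

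Ifitm3 was also the 1 gene of the 35 that changed between the first and second lung passage. L2P exceeded L1P by 1.35 ± 0.21 (limma adjusted p = 0.0179), where 0.0934% of all genes rose and 0.0495% fell. The call was lost without any 1 of the L1P arrays (0.0607 to 0.158) or without L2P array 2 (0.117) or 3 (0.113), which left 0 members passing and 1 to 3 at an unadjusted p under 0.05 in limma. Irf9 was higher on all L2P arrays than on all L1P arrays, by 0.46, and did not pass.

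In the other pathway genes, Ifi47 rose in both lung lines. It read 4.57, 4.53 and 4.644 in E1KD, 6.186, 7.218 and 6.124 in L1P and 6.934, 6.896 and 6.701 in L2P, and the rises were 1.93 ± 0.32 (limma adjusted p = 0.00447) and 2.26 ± 0.32 (0.00103). Ly6e went the opposite way from M1P, to 5.45, 5.506 and 4.674 in L1P and 5.753, 4.642 and 4.802 in L2P. It fell by 1.58 ± 0.37 in L1P (limma adjusted p = 0.0372) and by 1.73 ± 0.37 in L2P (0.0162) on the log2 scale. The L1P fall was lost without E1KD array 1 (0.152) or 3 (0.155), any L1P array (0.0743 to 0.175), NMuMG array 1 (0.0575) or 2 (0.0526) or L2P array 3 (0.0527). The L2P fall was lost without E1KD array 1 (0.0739) or 3 (0.075) or L2P array 2 (0.0892) or 3 (0.0805). Trim21, an antibody receptor and ubiquitin ligase, rose in L2P by 0.65 ± 0.16 (limma adjusted p = 0.0365), a call lost without any 1 of the E1KD or L2P arrays (0.0681 to 0.166), NMuMG array 1 (0.0553) or 3 (0.0547) or L1P array 1 (0.0575). Between L2P and L1P, 0 of 50 pathway genes passed in limma. At an unadjusted p under 0.05 in limma, 3 were higher and 0 lower, beside 300 and 114 of all 18193 genes.

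L1P and M1P were both recovered after passage 1, from lung and from mammary tumour. In L1P 8 of 35 interferon-stimulated genes were lower than in M1P and 1 was higher, beside 25.9% of all genes that fell and 13.6% that rose. The 8 are 22.9% of the 35, a smaller share than over all genes, and the median was -0.20 against -0.25. Quantile normalization moved these medians to -0.05 and -0.10. The falls were Oasl1, Irf3, Isg20, Ifitm2, Bst2, Stat2, Irf7 and Irf1, and the rise was Irf9.

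Oasl1 differed most, with 5.322, 5.54 and 5.196 in L1P against 7.503 to 8.564 in M1P (-2.66 ± 0.27, limma adjusted p = 0.000106), and its call held in all 22 alternatives run. Irf3 fell by 1.20 ± 0.17 on the log2 scale (limma adjusted p = 0.000794), with 8.432, 8.536 and 8.285 in L1P. Its other probe sets gave -1.23, -0.13 and -0.21. Isg20 (-0.98 ± 0.20, limma adjusted p = 0.00535), Ifitm2 (-0.95 ± 0.20, 0.00586) and Irf7 (-0.73 ± 0.18, 0.0108) did not overlap between the lines either. Bst2 (-0.80 ± 0.26, limma adjusted p = 0.0316) was lost without M1P array 1 (0.134) or L1P array 1 (0.0791) or 3 (0.101), and with array weights (0.0524). Stat2, the partner of Irf9, read 4.254, 4.106 and 4.038 in L1P (-0.74 ± 0.26, limma adjusted p = 0.0394) and was lost without any 1 of the L1P arrays (0.0628 to 0.113), M1P array 1 (0.115) or 2 (0.108) or E1KD array 1 (0.0503) or 3 (0.0509), and under quantile normalization (0.0959). The other probe set of Stat2 gave a difference of -0.03 here.

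Irf1 (-0.53 ± 0.18, limma adjusted p = 0.0351) overlapped between the lines, and was lost without any 1 of the L1P arrays (0.0576 to 0.125) or M1P array 1 (0.133) or 2 (0.0975). Irf9 was higher in L1P by 0.60 ± 0.20 (limma adjusted p = 0.0357), a call lost without any 1 of the L1P arrays (0.0586 to 0.121) or M1P array 2 (0.0776) or 3 (0.0726), and under quantile normalization (0.0652). The count of 9 became 15 without M1P array 3 and 5 without L1P array 1 or 3, while the share of all genes called went from 39.5% to 54.2%, 25.2% and 13.7%. With the 2 lines alone in the fit it was 1, Oasl1, beside 1.58% of all genes. With M1P arrays 1 and 2 left out, the differences were -0.63 for Ifitm2, -0.54 for Bst2, -0.54 for Irf7 and -0.32 for Stat2. For Irf1 it was -0.08 and for Irf9 0.79.

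Of the 50 other pathway genes, 6 rose (12.0%) and 9 fell (18.0%) from M1P to L1P. Ly6e fell by 5.25 ± 0.37 on the log2 scale (limma adjusted p = 5.42e-06), Ifi27 by 1.56 ± 0.23 (0.000926) and Lgals3bp, a secreted glycoprotein, by 1.52 ± 0.32 (0.00595). The largest rises were the RNA sensor Tlr3 (1.23 ± 0.35, limma adjusted p = 0.0198), the Irf3 kinase Tbk1 (1.17 ± 0.43, 0.0459) and Ptpn2 (1.11 ± 0.35, 0.0291). All 3 were lost without M1P array 1 (0.0748, 0.196 and 0.124) and without L1P array 2 (0.0505, 0.0858 and 0.0635) or 3 (0.0812, 0.134 and 0.0898). Ptpn2 was also lost without M1P array 2 (0.0631) or L1P array 1 (0.0548), and Tbk1 without L1P array 1 (0.0734), L2P array 2 (0.0554) or any NMuMG or E1KD array (0.0531 to 0.0588), and under quantile normalization (0.0633). With the 2 lines alone in the fit Ifi27 (0.0656), Lgals3bp (0.0852) and the 3 rises (0.0763 to 0.149) did not pass, and Lgals3bp had an adjusted p of 0.206 with M1P arrays 1 and 2 left out. Markers moved here as well. In L1P 3 of 10 leukocyte markers (Csf1r, Cd14 and Tyrobp) and 3 of 7 fibroblast markers fell against M1P. So did 2 of 6 alveolar and airway, 1 of 6 endothelial and 1 of 8 epithelial markers, and none rose in any list. Over all genes 25.9% fell and 13.6% rose. The part of the markers was not tested.

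**Figure D4:**
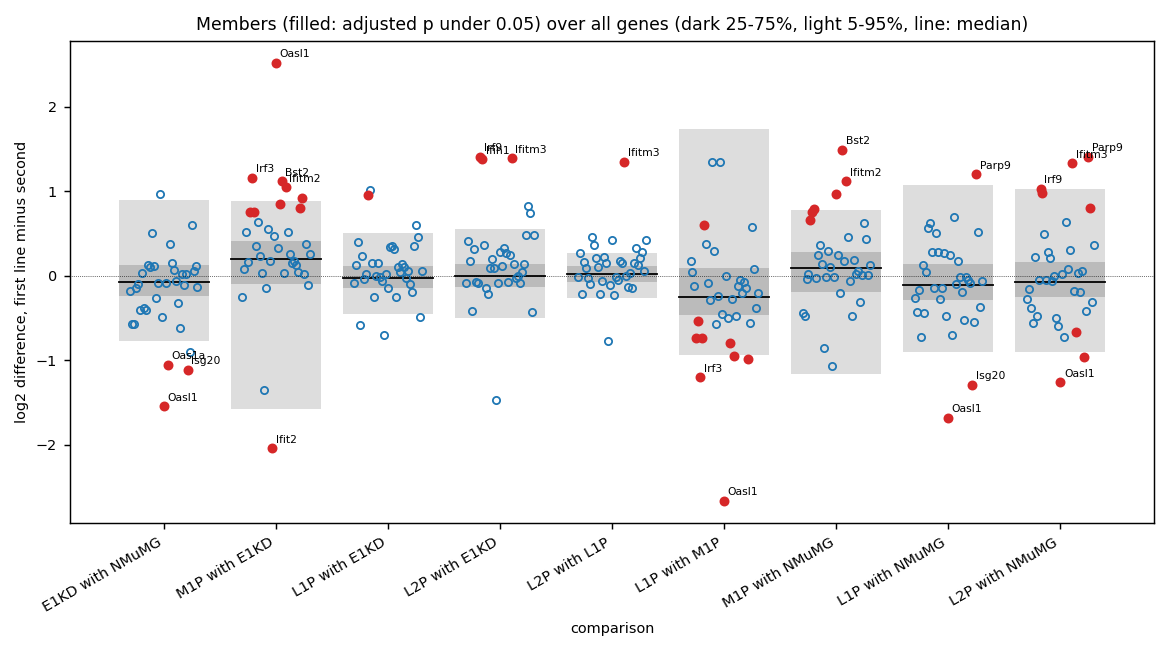
Each circle is the log2 difference of 1 of the 35 interferon-stimulated genes in 1 of 9 comparisons, first line minus second, filled where the limma adjusted p was under 0.05 and named where the size was also at least 1. Grey bands give the 25% to 75% range and the 5% to 95% range of all 18193 genes with their median as a line, and most circles lie inside the bands, with Oasl1 among those outside.

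Setting the passaged lines against NMuMG gives the combined distance from the parent, in comparisons that share the NMuMG arrays and were added after the values had been seen. In M1P 6 of 35 interferon-stimulated genes were higher and none lower, beside 7.28% and 4.56% of all genes. In L1P 1 was higher and 2 lower, beside 5.02% and 9.76%. In L2P 5 were higher and 3 lower, beside 5.56% and 8.68%. The medians were 0.10, -0.08 and -0.05 against 0.09, -0.10 and -0.07 over all genes, and quantile normalization turned the member medians of L1P and L2P to 0.03 and 0.05. At an unadjusted p under 0.05 in limma, 8 of 35 genes were higher and 3 lower in M1P, beside 3073 and 2094 of all 18193 genes.

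In M1P the genes above NMuMG were Bst2 (1.49 ± 0.26, limma adjusted p = 0.00221), Ifitm2 (1.12 ± 0.20, 0.00259), Oasl1 (0.97 ± 0.27, 0.0345), Irf7 (0.79 ± 0.18, 0.012), Irf3 (0.76 ± 0.17, 0.0118) and Irf1 (0.66 ± 0.18, 0.0305). None of them overlapped with NMuMG. The other probe sets of Irf3 gave 0.83, 0.44 and -0.05. Oasl1 was lost without any 1 of the NMuMG arrays (0.0508 to 0.155), M1P array 1 (0.114) or 2 (0.0596) or L1P array 1 (0.0503). Irf1 was lost without any 1 of the NMuMG arrays (0.0643 to 0.0992) or M1P array 1 (0.0959) or 2 (0.0848), and Irf7 without NMuMG array 2 (0.0514). The count of 6 became 3 without NMuMG array 2 and 10 without M1P array 3, while the share of all genes called went from 11.8% to 8.0% and 28.6%. With only the 2 lines in the fit it was 1, Ifitm2, beside 2.46% of all genes. With M1P arrays 1 and 2 left out, the differences were 0.8 for Ifitm2, 0.6 for Irf7, 0.47 for Oasl1, 0.36 for Irf3 and 0.21 for Irf1.

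In both lung lines Oasl1 and Isg20 stayed below the parent. Oasl1 differed by -1.68 ± 0.27 in L1P (limma adjusted p = 0.000868) and by -1.26 ± 0.27 in L2P (0.00627), where it read 5.816, 5.784 and 5.725. Isg20 differed by -1.29 ± 0.20 in L1P (limma adjusted p = 0.000718), with 9.039, 8.689 and 8.849, and by -0.96 ± 0.20 in L2P (0.00559), with 9.438, 9.081 and 9.043. These 4 calls held in all 22 alternatives run. Mx1, a dynamin-like GTPase that traps viral nucleocapsids, differed by -0.66 ± 0.20 in L2P (limma adjusted p = 0.0481), and was lost without any 1 of 12 arrays: NMuMG array 2 or 3, M1P array 2 and all arrays of E1KD, L1P and L2P (0.0582 to 0.188), as under quantile normalization (0.0866).

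Parp9, an ADP-ribosyltransferase family member, was the gene above NMuMG in both lung lines. It read 4.824, 5.341 and 5.434 in NMuMG, 6.244, 6.643 and 6.312 in L1P and 6.186, 6.749 and 6.902 in L2P, both without overlap with NMuMG. The rise was 1.20 ± 0.36 in L1P (limma adjusted p = 0.0413) and 1.41 ± 0.36 in L2P (0.0183). The L1P call was lost without any 1 of the NMuMG or L1P arrays (0.0653 to 0.154), E1KD array 2 (0.0525) or 3 (0.0565) or L2P array 2 (0.0558) or 3 (0.0513), and under quantile normalization (0.0531). The L2P call was lost without NMuMG array 1 (0.0832) or L2P array 2 (0.0714) or 3 (0.0839). The E1KD arrays read 5.41, 6.043 and 5.938, and their difference from NMuMG did not pass (0.60).

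L2P also exceeded NMuMG in Ifitm3 (1.33 ± 0.21, limma adjusted p = 0.000715), Irf9 (1.03 ± 0.20, 0.00368), Ifih1 (0.98 ± 0.30, 0.0484) and Parp14 (0.80 ± 0.20, 0.0173), an ADP-ribosyltransferase. The calls for Ifitm3 and Irf9 held in the 21 alternatives in which they were tested. Ifih1 was lost without any 1 of the NMuMG or E1KD arrays (0.0569 to 0.141), L1P array 3 (0.0617) or L2P array 2 (0.169) or 3 (0.205). Parp14 was lost without NMuMG array 1 (0.0785) or 2 (0.0593) or L2P array 2 (0.0635) or 3 (0.0861), and its other probe set gave -0.05. The L1P count of 3 rose to 9 when M1P array 1 was left out and to 6 when M1P array 3 was, while the share of all genes called went from 14.8% to 24.1% and 19.0%. The L2P count of 8 became 5 without NMuMG array 1 or 2 and 4 without L2P array 2 or 3, while the share of all genes called went from 14.2% to between 9.44% and 10.7%.

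Against NMuMG, 8 of the 50 other pathway genes rose and 4 fell in M1P, beside 4 and 7 in L1P and 4 and 7 in L2P. Ly6e was 6.47 ± 0.37 higher in M1P (limma adjusted p = 1.31e-07), though its NMuMG signals (3.642 to 4.223) lay at or below the array medians, where a difference is compressed. In L1P it was 1.22 ± 0.37 higher (limma adjusted p = 0.0394), a call lost without any 1 of the NMuMG arrays (0.0651 to 0.137), E1KD array 1 (0.051) or 3 (0.0528) or L1P array 1 (0.128) or 2 (0.134). Parp12 was higher by 3.79 ± 0.30 in M1P (limma adjusted p = 2.71e-06), 2.70 ± 0.30 in L1P (4.19e-05) and 3.04 ± 0.30 in L2P (1.35e-05), and Ifi47 by 2.17 ± 0.32 (0.000708), 2.07 ± 0.32 (0.000679) and 2.41 ± 0.32 (0.000196). Sting1, the adaptor of DNA sensing, was 1.67 ± 0.33 higher in L2P (limma adjusted p = 0.00352).

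Jak2 was lower in all 3 passaged lines, by -2.34 ± 0.49 in M1P (limma adjusted p = 0.00742), -1.56 ± 0.49 in L1P (0.0477) and -1.81 ± 0.49 in L2P (0.0235). The L1P call was lost without any 1 of 12 arrays, those of NMuMG, E1KD and L1P, M1P array 2 and L2P array 2 or 3 (0.0538 to 0.162), and with the probe set of largest variance (0.111). The L2P call was lost without NMuMG array 1 (0.0963) or 3 (0.0721) or L2P array 1 (0.0807). Ifngr2, the second chain of the type II interferon receptor, fell in L1P (-1.44 ± 0.26, limma adjusted p = 0.0022) and L2P (-1.43 ± 0.26, 0.00224), and so did Socs3 (-1.28 ± 0.26, 0.00403, and -1.52 ± 0.26, 0.00118). These 4 calls held in all 22 alternatives run. In M1P Ikbke (-1.20 ± 0.23, limma adjusted p = 0.00437) and Irgm1 (-1.15 ± 0.25, 0.00946) fell, and with the 2 lines alone in the fit Jak2 (0.13), Ikbke (0.133) and Irgm1 (0.078) did not pass.

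The members that passed in none of the 9 comparisons number 18 of 35, and the same share over all genes was not counted. They are the 3 receptor genes Ifnar1, Ifnar2 and Ifngr1, the sensors Ddx58 and Dhx58, Eif2ak2, Trim25 (the ubiquitin ligase that activates Ddx58), Usp18 (which removes Isg15), Ifit1 and Ifit3, Oasl2, Ifitm1, Rsad2, Mx2, Gbp2, Gbp3, Cxcl10 and Xaf1. Several of these are textbook reporters of an interferon response. Other members, Irf7, Oas1a, Bst2, Mx1 and Ifitm3 among them, passed in at least 1 comparison, and Isg15 was not measured. Ifit1 lay between 2.788 and 3.345 on all 15 arrays, Rsad2 (viperin) between 3.858 and 4.672, the chemokine Cxcl10 between 3.531 and 4.559, and Gbp2 between 2.206 and 2.667. Ifit1 and Gbp2 were below the array median on every array, where a change is compressed, and Rsad2 and Cxcl10 lay around it. The widest ranges of the 18 were Eif2ak2 (4.682 to 7.561), Usp18 (3.099 to 4.58) and Ifngr1 (8.502 to 9.908).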

How the data were processed

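RNA of 5 cell lines, 3 arrays each, was amplified from 100 ng of total RNA per the labels' protocols. The authors deposited log2 signals for 45101 probe sets, used as deposited. The submitters' processing notes name RMA, MAS5 and Affymetrix Expression Console, with roles and versions not given in the sources used here. No detection calls were used, so low signal was not separated from none.

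Probe sets were named from the platform annotation with symbols updated through RefSeq (GRCm38.p6, 34741 updated). Of the probe sets, 34945 carried 1 symbol, 932 carried several, 9160 carried none and 64 were controls. Each of 18193 genes was its probe set with the highest mean.

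Line means were estimated in limma 3.58.1 (R 4.3.3) from all 15 arrays together, leaving 10 residual degrees of freedom, with moderated two-sided tests and Benjamini-Hochberg adjustment over all genes. "Rose" and "fell" mean an adjusted p under 0.05. The script was tested on simulated data. Members were named where they passed with a log2 difference of at least 1 or where M1P array 3 opposed arrays 1 and 2, and others were named when counted among few. Pathway genes named are up to the 3 largest rises and falls that passed in each comparison. Members and lists were chosen with earlier results of these data known, and the 3 comparisons with NMuMG of passaged lines were added after values were seen. Alternatives were quantile normalization, only the lines compared, array weights, the probe set of largest variance, dim genes left out, the replicate block, each array left out, and M1P arrays 1 and 2 left out. Sequences come from RefSeq, and figures were drawn in matplotlib 3.10.9.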

Additional observations from a re-analysis of the deposited data

Results flagged for a closer look

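M1P and L1P were each set against E1KD, and the difference between the 2 effects is the L1P with M1P test, since the E1KD arrays cancel. It passed for 9 of 35 interferon-stimulated genes (limma, adjusted p under 0.05): Oasl1 (-2.66), Irf3 (-1.20), Isg20 (-0.98), Ifitm2 (-0.95), Bst2 (-0.80), Stat2 (-0.74), Irf7 (-0.73) and Irf1 (-0.53) were lower in the lung line on the log2 scale, and Irf9 was higher (0.60). The other probe set of Stat2 gave -0.03. Over all genes 25.9% were lower and 13.6% higher, so a difference between these lines was common. Of the 2 lung passages, Ifitm3 alone differed in its change from E1KD (1.35).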

How the results depend on the processing

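Of 44 calls on single members, each recomputed under the alternatives it could be tested in (953 call and alternative pairs), 785 kept direction and call, 168 kept direction and lost the call, and 0 turned. Members without a call gained one in 143 of 5806 pairs, of which 2 turned direction with the probe set of largest variance: Trim25 in E1KD with NMuMG (-0.80, limma adjusted p = 0.0286) and Ifnar2 in M1P with E1KD (-0.85, 0.028).

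Counts of members passing moved by over 1.5 times as follows, and the cause was not tested. Percentages in brackets are the shares of all genes called under the same setting. Fitting only the lines compared gave 7 (18.9%) in place of 3 (9.49%) for E1KD with NMuMG. It gave 0 (0.368%) in place of 10 (27.6%) for M1P and 2 (6.57%) in place of 1 (2.48%) for L1P with E1KD. For L1P with M1P it gave 1 (1.58%) in place of 9 (39.5%). Against NMuMG it gave 1 (2.46%) in place of 6 (11.8%) for M1P and 10 (28.6%) in place of 3 (14.8%) for L1P. Array weights gave 9 for E1KD with NMuMG, 3 for L1P and 7 for L2P with E1KD, 13 for L1P and 17 for L2P with NMuMG, and 21 in place of 12 in the F test. Leaving out M1P arrays 1 and 2 gave 6 for E1KD with NMuMG, 3, 2 and 6 for M1P, L1P and L2P with E1KD, 3 for L1P with M1P, and 3 and 11 for M1P and L1P with NMuMG. Quantile normalization gave 0 (2.44%) for L1P with E1KD, with 4 members at an unadjusted p under 0.05 in limma. With dim genes left out, 16 members were tested. Of these 0 passed in L1P (3.08%) and 0 in L2P (4.86%) against E1KD, and 0 for L2P with L1P (0.055%). At an unadjusted p under 0.05 in limma these counts were 0, 3 and 0. The count was 3 (23.0%) for L2P with NMuMG and 7 (49.1%) in the F test. Irf9, Ifih1 and Ifitm3 had mean signals of 5.245, 5.141 and 3.081. With all genes, they were the members called for L1P and L2P with E1KD and for L2P with L1P. They were left out as dim (mean not over 5.45), so the counts of 0 do not test their calls.

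Leaving out 1 array gave 2 to 5 for E1KD with NMuMG, 3 to 14 for M1P, 0 to 2 for L1P and 2 to 4 for L2P with E1KD, 0 to 1 for L2P with L1P, 5 to 15 for L1P with M1P, 3 to 10 for M1P, 2 to 9 for L1P and 4 to 12 for L2P with NMuMG, and 9 to 19 in the F test. The share of all genes called moved too when single arrays were left out, as given above for several comparisons.

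Same-numbered arrays deviated together (r over 0.1) in 16 of 30 pairs of lines, with r from -0.496 to 0.755, and in none of the 9 comparisons made were all 3 same-numbered pairs over 0.1, so the numbers were not taken to pair the samples. Between M1P and L2P, which were not compared, all 3 were (0.755, 0.130 and 0.691), a hint from the data and not from the design. The replicate block gave 5 for E1KD with NMuMG and 2 for L1P with E1KD. It called 12.0% and 3.3% of all genes there, in place of 9.49% and 2.48%.

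Quantile normalization moved the median of all genes by more than 0.1 for M1P with E1KD (0.20 to 0.10) and L1P with M1P (-0.25 to -0.10). Signals near the floor of the scale limit what can be seen of the 9 members below the array median throughout.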
